A study of Mus musculus with 6 samples.

Results

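Collagen chains were followed by RNA-seq in C2C12, a line of mouse myoblasts that form myotubes once serum is reduced. The chains were taken as every gene whose symbol is Col, a number, the letter a and a number, which gave 44 genes of 55413. They were grouped as 11 fibrillar chains, 6 basement membrane chains of type IV, 6 chains of type VI, 9 FACIT chains (fibril-associated collagens with interrupted triple helices) and 12 others. Of the 44, 16 had a mean of at least 1 FPKM (fragments or reads per kilobase of gene and per size of the library, a unit inferred from the values) in at least 1 group and were tested, and 28 were not. All 6 libraries were made on day 4 of differentiation with 2% horse serum, and before that the cells had grown with 10% fetal bovine serum. There were 3 libraries of WT cells and 3 labelled as an FHL3 knockout (FHL3-KO). FHL3 belongs to the LIM-only proteins of muscle, and the series title ties it to fast glycolytic fibres and to the transcription factor YY1. No clone, guide or allele is named for the knockout, so an effect of the clone and one of the genotype cannot be told apart. No label says whether the libraries are separate cultures, so the p-values cover the spread between these 6 samples alone, and that spread may be technical.

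Collagens are trimeric proteins of the extracellular matrix whose chains wind into a triple helix in the endoplasmic reticulum. Fibrillar collagens form the banded fibrils of the interstitial matrix, type IV builds the network of the basement membrane that ensheathes each muscle fibre, and type VI forms beaded filaments that link that sheath to the matrix around it. In muscle, fibroblasts are the main source of the interstitial chains, while myogenic cells also make several of them. Mutations in the type VI genes cause the Bethlem and Ullrich muscle diseases.

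Fhl3 RNA did not fall with the label. The WT libraries held 27.8, 30.03 and 33.7 FPKM of it, and the libraries labelled FHL3-KO held more, 57.2, 53.5 and 58.9 FPKM (limma adjusted p = 0.000547). The groups are therefore called by their labels, FHL3-KO being shortened to KO, and "rose" and "fell" mean KO-labelled libraries relative to WT. The FPKM of a library summed to between 424987 and 494176, and read depth is unknown. Of 12528 genes tested with limma on log2(FPKM + 1), 40.8% passed an adjusted p of 0.05: 19.7% rose and 21.2% fell. No overlap between the groups was seen for 53.8%, 26.9% with the KO-labelled libraries higher and 26.9% with them lower. Scaling all libraries to 1 common FPKM sum shifted the median log2 change of the tested genes from -0.01 to -0.10, and rises were then 36.3% of the calls in place of 48.2%. Markers of differentiated muscle were present in all libraries, and their summed level was 4301 to 4802 FPKM in WT and 10015 to 10431 FPKM in the KO-labelled libraries, with 7 of 8 rising. The 9 fibroblast markers summed to 156 to 178 FPKM in WT, against 25.5 to 29.3 FPKM in the other group. Most of that sum was decorin, at 151.9 ± 10 and 12.1 ± 1.1 FPKM (SD, n = 3), while Tcf21 and Thy1 were at 0 in every library, Lum, Dpt and Pi16 were under 1 FPKM, and Pdgfra stood at 1.36 ± 0.13 and 1.07 ± 0.081 FPKM. The other two markers were higher on average in the KO-labelled libraries without passing limma: Fbln1 was at 6.97 ± 0.74 and 8.19 ± 0.38 FPKM (adjusted p = 0.145) and Twist2 at 4.40 ± 0.35 and 5.64 ± 1.06 FPKM (adjusted p = 0.142). The 7 smooth muscle and pericyte markers summed to 946 to 1044 FPKM in WT, against 1136 to 1227 FPKM, most of it Acta2. Among them Pdgfrb rose 2.69-fold (adjusted p = 0.00065), Cnn1 fell from 1.24 ± 0.19 to 0.151 ± 0.13 FPKM (adjusted p = 0.0022), and Rgs5, Kcnj8 and Myh11 were under 1 FPKM in every library. Cnn1 entered the test only through WT, the group in which it was high, and a gene entering that way had to differ. All 6 endothelial markers, all 5 Schwann cell markers, 5 of 6 cartilage markers and 4 of 5 macrophage markers were under 1 FPKM in every library. The 6 liver markers summed to 85.0 FPKM in 1 WT library, replicate 1, and to 0 in the KO-labelled libraries, and leaving that library out changed no call among the 16 tested chains. The part of these cell type markers in the collagen differences was not tested, and in bulk RNA fewer cells of a type and less RNA per cell cannot be told apart.

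Summed over all 44 chains, collagen RNA stood at 684, 687 and 666 FPKM in WT replicates 1 to 3 and at 546, 539 and 632 FPKM in the KO-labelled libraries. The groups did not overlap, and the means were 679 ± 11 and 573 ± 52 FPKM (SD, n = 3). The basement membrane chains of type IV gave the largest relative difference among the classes that were lower, with 112 ± 1.5 against 57.0 ± 6.0 FPKM (1.96-fold), or from 16.5% ± 0.43 to 9.94% ± 0.17 of the collagen sum. Col18a1, whose product also belongs to basement membranes, was counted among the other chains and was higher, at 17.4 ± 3.0 and 49.7 ± 7.0 FPKM. Fibrillar chains made up 73.1% ± 0.13 and 72.3% ± 0.86 of it. The share of type VI was 3.63% ± 0.61 and 5.39% ± 0.64, and that of the FACIT chains 1.47% ± 0.062 and 1.59% ± 0.077. That of the other chains was 5.33% ± 0.34 and 10.8% ± 0.13. Of the collagen sum, Col18a1 gave 2.56% in WT and 8.65% in the KO-labelled libraries, and Col8a1 gave 2.54% and 1.72%. Within the KO-labelled group, replicate 3 was the highest library for 13 of the 16 tested chains. These sums are descriptions and carry no test.

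Chains changed in both directions. Of the 16 tested, 5 rose (Col1a1, Col6a1, Col6a2, Col12a1 and Col18a1), 7 fell (Col3a1, Col4a1, Col4a2, Col4a5, Col5a2, Col5a3 and Col8a1) and 4 did not pass limma. That is 75% of the tested chains, against 40.8% of all tested genes, of which 19.7% rose and 21.2% fell. The size of the log2 change had a median of 0.77 over the 16 chains and of 0.31 over all tested genes, and the signed median was -0.25 against -0.01. Groups were apart for 15 of the 16 chains, 7 of them with the KO-labelled libraries higher and 8 with them lower, against 53.8% of all tested genes, 26.9% in each direction. A called change of at least 1 on the log2 scale was seen for 4 chains, Col6a1, Col18a1, Col4a1 and Col5a3, or 25.0%, against 6.07% of all tested genes. Col6a2 is in the counts of calls and of groups apart, though it entered the test only through the KO-labelled group (WT mean 0.659 FPKM). A gene entering that way had to differ, so Col6a2 lends these shares no support.

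**Figure D1:**
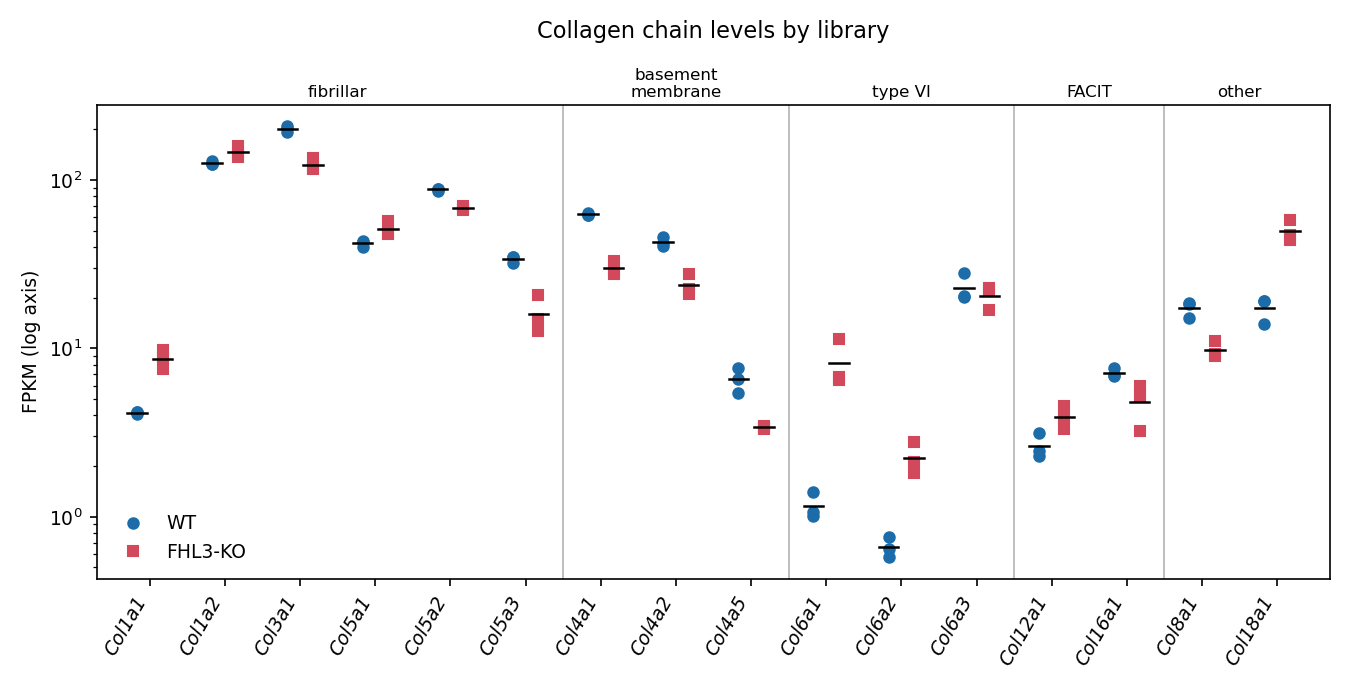
FPKM of the 16 tested collagen chains in each library, on a log axis, ordered by class, with circles for the 3 WT libraries, squares for the 3 libraries labelled FHL3-KO and a bar at each mean. The groups are apart for every chain but Col6a3, with the widest gap at Col6a1.

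Among the fibrillar chains, Col3a1, Col5a2 and Col5a3 fell, Col1a1 rose, and Col1a2 and Col5a1 did not pass. Col3a1 (chr1:45311538-45349706, whole gene in GENCODE on GRCm38, as for all genes here), the single chain of type III collagen and the most abundant collagen RNA in WT, was at 203.3, 207.7 and 193.6 FPKM in WT, against 116.6, 117.5 and 134.2 FPKM in the KO-labelled libraries. Every WT library lay above every other one, and the log2 change was -0.71 (SE 0.086, limma adjusted p = 0.00094). Its share of the collagen sum went from 29.7% ± 0.59 to 21.5% ± 0.29, and it ranked 1 in WT and 2, behind Col1a2, in the other group.

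Type I collagen, the main fibril of tendon, skin and bone, is built from the products of Col1a1 (chr11:94936224-94953042) and Col1a2 (chr6:4504814-4541544). Col1a1 was at 4.16, 4.10 and 4.21 FPKM in WT, against 8.73, 7.5 and 9.78 FPKM in the KO-labelled libraries, a 2.09-fold higher mean (log2 change 0.90, SE 0.11, limma adjusted p = 0.00108). Col1a2 was at 129.6, 124.2 and 124.7 FPKM in WT, against 144.5, 136.8 and 158.7 FPKM in the other group. The Col1a2 groups did not overlap, but the log2 change of 0.21 (95% interval 0.02 to 0.40) did not pass (limma adjusted p = 0.0723). It passed after each library's trends with transcript length and GC content were removed (0.25, adjusted p = 0.0459), after removal of the length trend alone (0.49, adjusted p = 0.0182) and without KO-labelled replicate 2 (0.26, adjusted p = 0.0465). Per kilobase, Col1a2 exceeded its partner Col1a1 by a wide margin in both groups, 30.3-fold ± 0.78 in WT and 17-fold ± 1.1 in the KO-labelled libraries.

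Type V collagen sits inside type I fibrils and limits their diameter, and its 3 chains did not move together. Col5a1 (chr2:27886425-28039514) was at 43.5, 42.9 and 39.9 FPKM in WT, against 48.1, 47.7 and 57.1 FPKM in the KO-labelled libraries. The difference of 0.27 on the log2 scale (95% interval 0.05 to 0.48) just missed the threshold (limma adjusted p = 0.0539) and passed after median-of-ratios scaling (adjusted p = 0.0417), after removal of the length trend (0.46, adjusted p = 0.0136) and without KO-labelled replicate 2 (adjusted p = 0.0459). Col5a2 (chr1:45374321-45503282), which lies 24.6 kb from Col3a1, was at 86.4, 88.6 and 88.5 FPKM and at 66.7, 67.1 and 70.5 FPKM. Its WT libraries were all higher, and the log2 change of -0.36 (SE 0.068) had a limma adjusted p of 0.00544. That call ended after removal of the length trend alone (-0.14, adjusted p = 0.311) but held after removal of length and GC trends (-0.28, adjusted p = 0.0353). Col5a3 (chr9:20770050-20815067), the least abundant chain of the type, fell the most, from 32, 35.0 and 34.9 FPKM to 14.9, 12.6 and 20.7 FPKM (log2 change -1.06, SE 0.16, limma adjusted p = 0.00253). The remaining 5 fibrillar genes, Col2a1 and Col11a1, Col11a2, Col24a1 and Col27a1, the first being the cartilage fibril gene, had means under 0.2 FPKM in both groups.

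All 3 tested basement membrane chains of type IV fell. Col4a1 and Col4a2, which form the type IV network found in every basement membrane, lie head to head on chromosome 8. Col4a1 was at 62.3, 63.4 and 62.0 FPKM in WT, against 28.9, 27.7 and 33.0 FPKM in the KO-labelled libraries, a log2 change of -1.04 (SE 0.084, limma adjusted p = 0.000188). The WT values lay in a narrow band, and their mean was 2.09-fold above that of the other group. Col4a2 was at 40.3, 42.5 and 45.6 FPKM in WT, against 21.1, 22.4 and 27.6 FPKM in the other group, a log2 change of -0.83 (SE 0.11, limma adjusted p = 0.00148). Col4a5 (chrX:141475385-141689234), an X-linked chain of specialised basement membranes, was at 7.68, 6.59 and 5.42 FPKM and at 3.47, 3.33 and 3.40 FPKM (log2 change -0.77, SE 0.13, limma adjusted p = 0.00343). Its partner chains Col4a3, Col4a4 and Col4a6 were each at 0.0191 FPKM or less in every library.

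The falls of Col4a1 and Col4a2 ran against the direction of their chromosome. The other 674 tested genes of chromosome 8 had a median log2 change of 0.37, with 348 rising and 48 falling, and of the 7 other tested genes within 500 kb of the pair 3 rose and 0 fell at limma adjusted p under 0.05. Col4a5 fell on a chromosome whose 405 other tested genes had a median of -0.14, with 63 rising and 112 falling. In the GENCODE annotation (GRCm38) Col4a1 covers chr8:11198423-11312826 on the minus strand and Col4a2 chr8:11312805-11449287 on the plus strand, so the genes overlap by 22 bases at their starts. Whether the counting used strand is unknown, and if it did not, reads in that overlap cannot be assigned.

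Type VI collagen split by chain, with Col6a1 and Col6a2 rising and Col6a3 not called. Col6a1, the first of its core chains, was at 1.013, 1.07 and 1.40 FPKM in WT, against 6.75, 6.46 and 11.3 FPKM in the KO-labelled libraries. The lowest of the latter lay far above the highest WT value, the mean was 7.04-fold higher, and the log2 change of 2.05 (SE 0.20, limma adjusted p = 0.000423) was the largest of the 16 chains. Col6a2 was at 0.641, 0.577 and 0.760 FPKM in WT, against 1.83, 2.12 and 2.80 FPKM in the other group, a 3.41-fold higher mean (log2 change 0.96, SE 0.14, limma adjusted p = 0.00232). The WT mean of Col6a2 was below 1 FPKM, so it entered the test only through the group in which it was high, and a gene entering that way had to differ. Col6a3 (chr1:90765923-90843971), the long chain whose cleaved end is endotrophin, was the abundant member of the type, at 27.9, 20.5 and 20.1 FPKM in WT, against 16.9, 21.8 and 22.9 FPKM in the KO-labelled libraries. Its groups overlapped, and the log2 difference of -0.14 had a 95% interval from -0.51 to 0.23 (limma adjusted p = 0.505). The alternative chains Col6a4, Col6a5 and Col6a6 were under 0.05 FPKM in every library.

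Col6a2, Col6a1 and Col18a1 lie near each other on chromosome 10, and all 3 were called higher. Col6a2 was tested only through the group in which it was high, and the 3 were set side by side after their calls were seen. Col18a1, whose product is a multiplexin of basement membranes and the source of endostatin, was at 13.9, 19.2 and 19 FPKM in WT, against 47.4, 44.1 and 57.6 FPKM in the KO-labelled libraries, a 2.86-fold higher mean (log2 change 1.47, SE 0.15, limma adjusted p = 0.00047). Its rank among the collagen RNAs was 9 in WT and 5 in the KO-labelled libraries. The 3 genes share the minus strand of chromosome 10 within 570787 bases, from Col6a2 (chr10:76595762-76623630) over Col6a1 (chr10:76708792-76726168) to Col18a1 (chr10:77052178-77166548), with gaps of 85.2 and 326.0 kb. The other genes there gave smaller changes. Of 14 other tested genes within it or 500 kb around it 2 rose and 1 fell, with log2 changes from -0.44 to 0.43, and the 618 other tested genes of chromosome 10 had a median of -0.18, with 62 rising and 210 falling. Pcbp3 lies between Col6a1 and Col18a1. It was higher in every KO-labelled library, at 1.07 ± 0.11 and 1.58 ± 0.21 FPKM, without passing (log2 change 0.32, limma adjusted p = 0.0718). Slc19a1, a folate carrier on the opposite strand whose end overlaps that of Col18a1 by 8825 bases, stood at 8.20, 7.08 and 7.15 FPKM and at 9, 10.6 and 9.92 FPKM (log2 change 0.36, limma adjusted p = 0.0272), so reads of the 2 genes cannot be told apart there.

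The bases before the start sites of these neighbours are shown because all 3 were called higher, Col6a2 with the limit given above. Beside them stand those of Col3a1 and Col8a1, which fell. Each run reads 5′ to 3′ on the gene's strand, from RefSeq on GRCm38.p6, and is limited to bases outside annotated exons. Capitals mark matches on either strand to any of 3 motifs. The GC box was searched as GGGCGG. The TATA box was searched by the letters TATAAA, and the CCAAT box by the letters of its name.
Col6a1, chr10:76726169-76726294, minus strand: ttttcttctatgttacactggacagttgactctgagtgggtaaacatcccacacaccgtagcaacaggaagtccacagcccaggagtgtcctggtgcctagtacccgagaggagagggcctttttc
Col6a2, chr10:76623631-76623880, minus strand: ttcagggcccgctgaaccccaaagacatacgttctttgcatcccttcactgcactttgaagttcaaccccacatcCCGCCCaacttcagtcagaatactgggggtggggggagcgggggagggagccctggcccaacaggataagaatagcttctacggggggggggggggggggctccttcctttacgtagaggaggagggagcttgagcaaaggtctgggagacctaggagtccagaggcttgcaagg
Col18a1, chr10:77166549-77166780, minus strand: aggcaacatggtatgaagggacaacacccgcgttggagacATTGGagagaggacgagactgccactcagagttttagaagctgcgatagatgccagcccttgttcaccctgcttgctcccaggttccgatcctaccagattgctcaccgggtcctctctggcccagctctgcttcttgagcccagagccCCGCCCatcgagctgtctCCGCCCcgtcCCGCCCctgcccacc
Col3a1, chr1:45311288-45311537, plus strand: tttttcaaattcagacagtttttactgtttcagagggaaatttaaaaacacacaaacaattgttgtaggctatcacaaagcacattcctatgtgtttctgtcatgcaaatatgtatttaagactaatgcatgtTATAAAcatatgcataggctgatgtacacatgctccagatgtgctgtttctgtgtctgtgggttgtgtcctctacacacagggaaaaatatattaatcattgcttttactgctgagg
Col8a1, chr16:57754738-57754987, minus strand: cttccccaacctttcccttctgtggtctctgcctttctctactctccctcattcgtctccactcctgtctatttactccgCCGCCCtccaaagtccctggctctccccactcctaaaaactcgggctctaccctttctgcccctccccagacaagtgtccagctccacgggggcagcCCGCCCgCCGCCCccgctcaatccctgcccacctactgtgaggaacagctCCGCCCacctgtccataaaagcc

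The Col18a1 stretch held 3 GC boxes and 1 CCAAT box, that of Col6a2 1 GC box, and the part shown for Col6a1, which ends 125 bases before its RefSeq start, held none of the 3 motifs. RefSeq gives Col6a2 and Col18a1 a second start each, not shown: the 250 bases before that of Col6a2 held 3 GC boxes, and those before that of Col18a1 held no GC box and no CCAAT box. Col8a1, which fell, had 4 GC boxes. Col3a1, which fell too, had no GC box and 1 match to TATAAA, beginning at base -117 from its start site, in a stretch of 35.2% GC. Of the 13 tested chains with a RefSeq promoter entry (Col1a1, Col5a2 and Col12a1 had none), 9 held a GC box in the 250 bases before a start, against 33.0% of 32536 promoters of that length. These 9 were 2 of 3 chains that rose, 4 of 6 that fell and 3 of 4 that were not called. The 2 that rose were Col18a1 and Col6a2, the latter tested only through the group in which it was high. A CCAAT box was found for 7 of the 13, against 33.8% of all promoters, a TATA box for Col3a1 alone, against 12.3%, and an E-box (CANNTG), the site of myogenic factors, for 6, against 66.2%. The YY1 core CCATNTT, searched because the series title names that factor, was found on either strand for Col18a1 alone, against 12.4% of all promoters. A chain counted if the motif lay before any of its RefSeq starts. The shares of all promoters are per promoter and not matched for GC content. E-boxes and the YY1 core are not marked in the runs above. A match describes letters only and is not a bound site.

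Of the FACIT chains, which decorate fibril surfaces, 2 of 9 were tested. Col12a1 (chr9:79598991-79718831), whose product bridges fibrils in tendon and muscle, was at 3.14, 2.45 and 2.29 FPKM in WT, against 3.33, 4.57 and 3.87 FPKM in the KO-labelled libraries. The groups were apart by a small margin, and the log2 change of 0.44 (SE 0.14) passed limma narrowly (adjusted p = 0.0415). The call ended under 8 of 18 alternatives, among them the replicate block (adjusted p = 0.0735) and leaving out WT replicate 2 (0.129), WT replicate 3 (0.113), KO-labelled replicate 2 (0.0947) or KO-labelled replicate 3 (0.0904). After removal of length and GC trends it was 0.62 (adjusted p = 0.0016). Col16a1 (chr4:130047840-130099283) was at 6.92, 7.63 and 6.81 FPKM in WT, against 5.22, 3.25 and 6.01 FPKM, lower in every KO-labelled library but with a wide spread there. Its log2 difference of -0.51 (95% interval -0.94 to -0.08) did not pass (limma adjusted p = 0.0595). It passed under 4 alternatives, among them removal of length and GC trends (-0.64, adjusted p = 0.0263) and leaving out KO-labelled replicate 3 (-0.66, adjusted p = 0.0321).

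Among the others, Col8a1 (chr16:57624258-57754737), a short chain that forms hexagonal networks in endothelial and vascular matrix, was at 18.5, 18.3 and 15.1 FPKM in WT and fell to 8.98, 11.1 and 9.20 FPKM (log2 change -0.76, SE 0.12, limma adjusted p = 0.00258). Its usual partner Col8a2 was under 0.05 FPKM in every library.

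**Figure D2:**
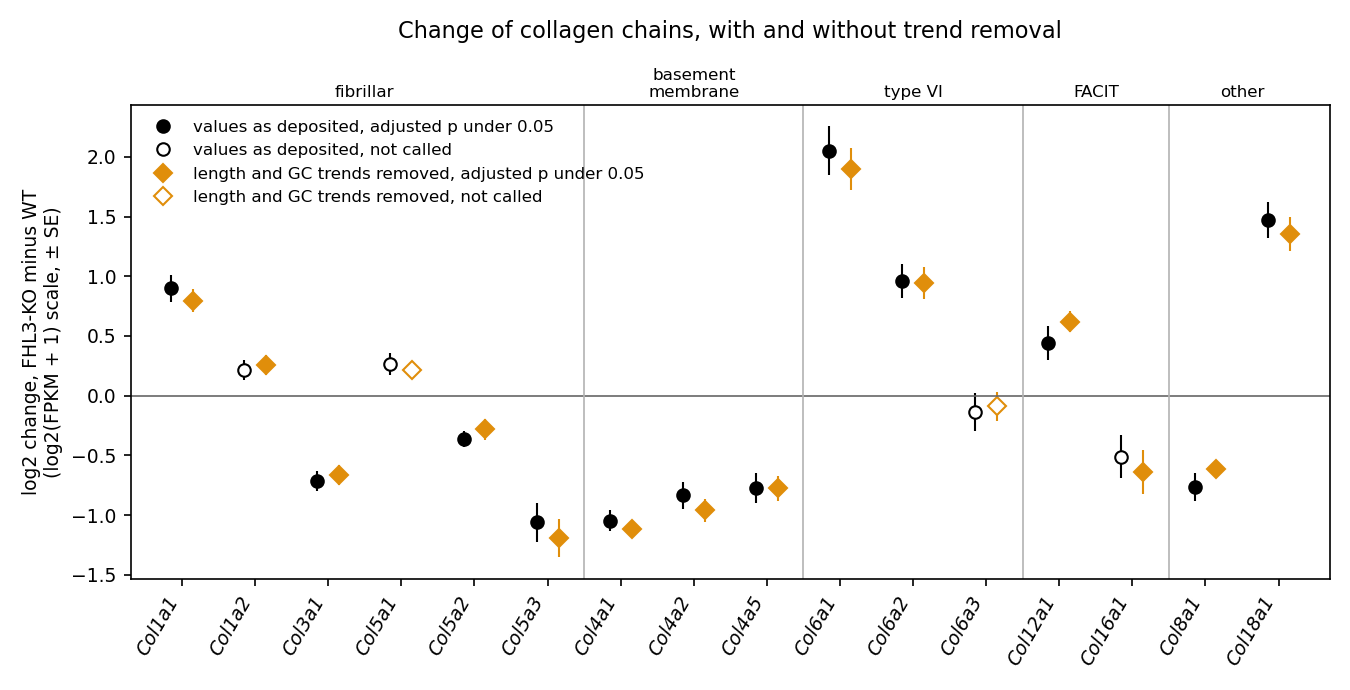
Log2 change of each tested chain with its standard error, on the log2(FPKM + 1) scale, from the values as deposited (circles) and after removal of each library's trends with transcript length and GC content (diamonds), filled where the limma adjusted p is under 0.05. Each chain keeps its direction, and Col1a2 and Col16a1 gain a call.

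The 28 untested chains were low throughout, with no library above 0.853 FPKM, and 18 of them were under 0.1 FPKM in both groups. Col2a1, Col6a6, Col9a1 and Col9a2 were listed at 0 in all 6 libraries, 15 more were at 0 in at least 1 library, and 9 were above 0 in all. When the filter on low values was dropped, 2 of the 28 rose and 2 fell at a limma adjusted p of 0.05. That share is near the one over all genes, where 14.9% of 27681 passed, 7.17% as rises and 7.75% as falls. Col26a1, a little studied chain of testis and ovary, was at 0.0553, 0.196 and 0.187 FPKM in WT, against 0.621, 0.853 and 0.717 FPKM in the KO-labelled libraries (adjusted p = 0.00967). Col14a1, a FACIT chain of tendon and muscle matrix, was at 0.0901, 0.0638 and 0.146 FPKM and at 0.384, 0.223 and 0.386 FPKM (adjusted p = 0.0415). Col17a1, the transmembrane collagen of skin hemidesmosomes, fell from 0.536, 0.659 and 0.654 FPKM to 0.196, 0.174 and 0.346 FPKM (adjusted p = 0.0258), and Col19a1, a FACIT chain, was at 0.0999, 0.117 and 0.0669 FPKM and was listed at 0, 0 and 0.0242 FPKM (adjusted p = 0.0263). At such levels a few reads decide a value, and the depth behind them is unknown. Groups were also apart for Col7a1, Col10a1 and Col28a1 (higher) and for Col11a1 and Col23a1 (lower), none with an adjusted p under 0.05. Col11a1 was listed at 0 in all KO-labelled libraries, and Col28a1 at 0 in 2 WT libraries. The share of all genes below the filter whose groups are apart is not given here, so these separations describe single chains only.

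Proportions between chains that assemble with each other were compared as FPKM ratios within each library, which cancels library size, over 4 pairs with at least 1 FPKM in both groups. Col1a1 to Col1a2 was at 0.0321, 0.0330 and 0.0338 in WT and at 0.0604, 0.0548 and 0.0616 in the KO-labelled libraries. Col5a1 to Col5a2 was at 0.504, 0.485 and 0.451 in WT and at 0.722, 0.711 and 0.810 in the other group. Both ratios were higher in every KO-labelled library, by 0.84 and 0.64 on the log2 scale. Col6a1 to Col6a3 differed the most, from 0.0364, 0.0523 and 0.0696 to 0.4, 0.296 and 0.494, by 2.93 on the log2 scale. Each of these 3 differences had an exact two-sided permutation p of 0.1, the smallest that 3 against 3 allows, and 0.133 after adjustment over the 4 pairs. Col4a1 to Col4a2 was at 1.55, 1.49 and 1.36 in WT and at 1.37, 1.24 and 1.196 in the other group, where 1 library lay within the WT range (log2 difference -0.21, exact permutation p = 0.2, adjusted p = 0.2). This was the smallest of the 4 differences, and no test compared the pairs with each other. The Col1a1 to Col1a2 difference was 0.54 after removal of length and GC trends, which needs a pseudocount of 1, and 0.69 with that pseudocount alone.

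**Figure D3:**
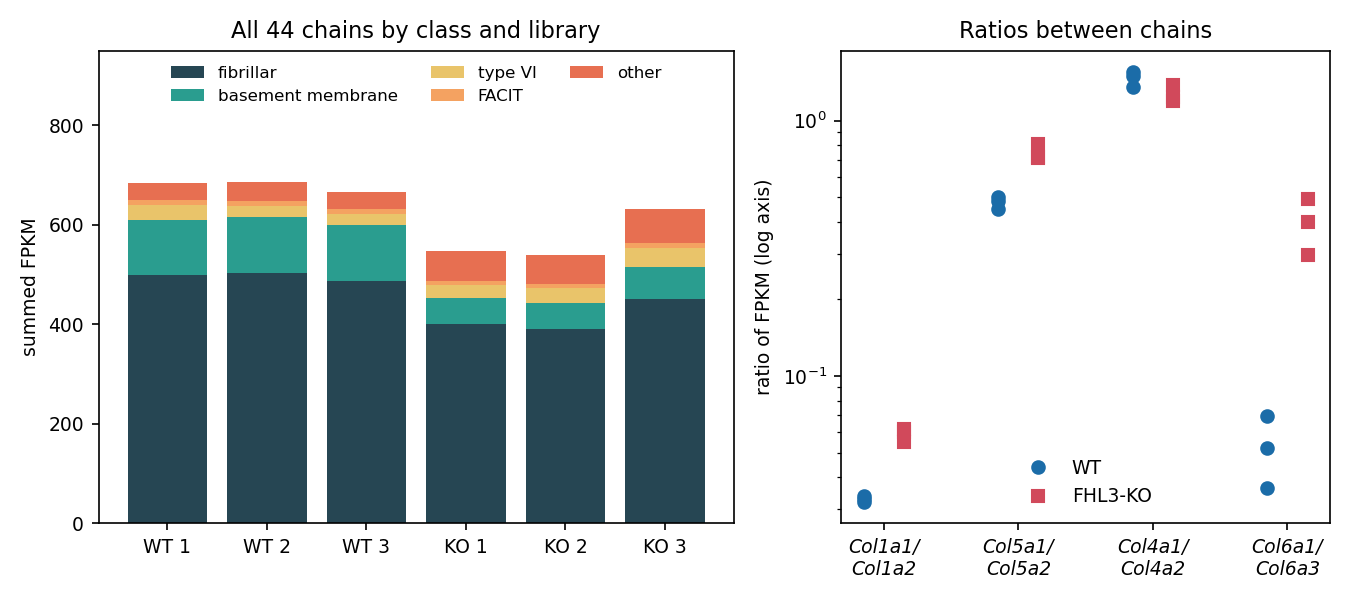
Left, summed FPKM of all 44 chains in each library, stacked by class, with the libraries labelled FHL3-KO written as KO. Right, FPKM ratio of 2 chains in each library on a log axis, with circles for WT and squares for FHL3-KO: the groups are apart for Col1a1/Col1a2, Col5a1/Col5a2 and Col6a1/Col6a3, and overlap for Col4a1/Col4a2.

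Over the whole table change ran with base composition, and the 16 chains spanned only part of its range. Over 12493 tested genes with an annotated transcript, the median log2 change was -0.37 in the quintile with the lowest GC content and 0.17 in that with the highest, and by length it was 0.09 in the shortest quintile and -0.21 in the longest. Spearman's rho of GC content and change was 0.38 across those genes and -0.04 across the 16 chains, which share libraries and are not replicates. The chains ran from 46.75% to 61.6% GC, against 17.14% to 78.34% over those genes. With 16 points in the narrower range, the value of -0.04 cannot be set against that of 0.38. Collagen transcripts are rich in GC and long, with medians of 56.2% GC and 7648 bases of exon over the 16 chains, against 49.8% and 4114 bases over all tested genes. Of the 9 chains in the quintile with the most GC, Col1a1, Col6a1 and Col18a1 rose, Col4a1, Col4a2 and Col5a3 fell, and Col1a2, Col5a1 and Col16a1 did not pass. After both trends were removed, 6 chains rose and 8 fell at limma adjusted p under 0.05, where 42.7% of all genes passed, 22.4% as rises and 20.3% as falls, with Col6a1 at 1.90, Col18a1 at 1.35, Col1a1 at 0.79, Col3a1 at -0.66, Col4a1 at -1.11 and Col5a3 at -1.19.

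**Figure D4:**
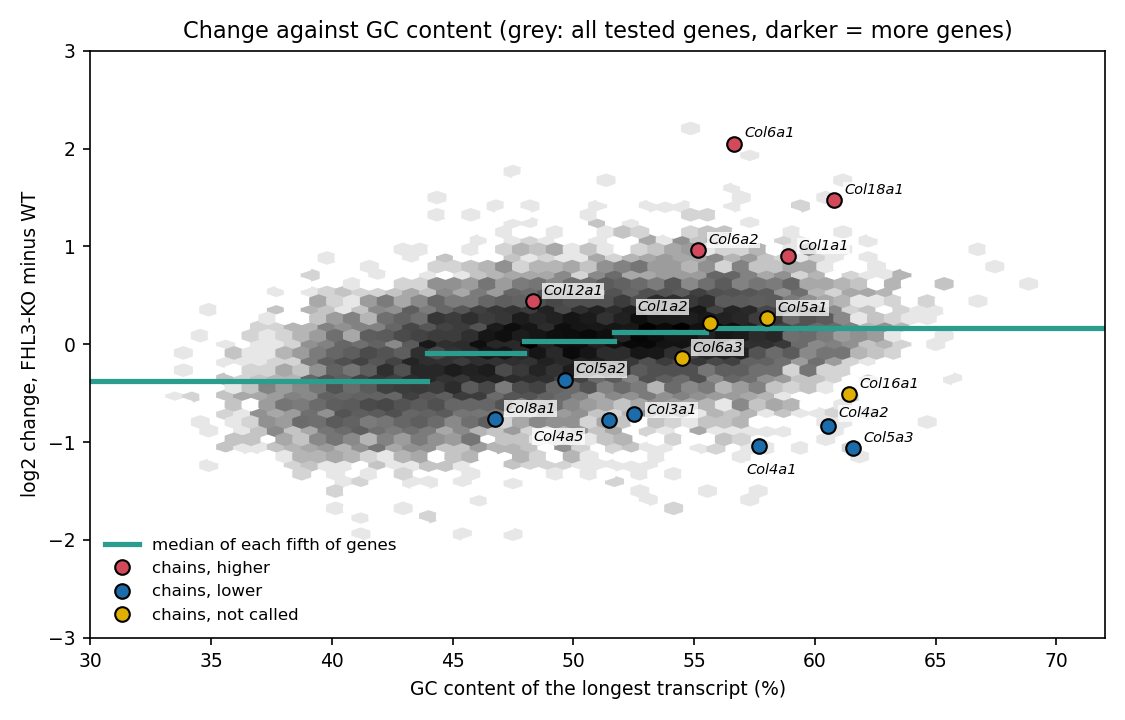
Log2 change against the GC content of the longest transcript, with all tested genes in grey, the median of each quintile of genes as a line and the 16 chains as points coloured by call. Chains of 55% to 62% GC lie both above and below the line.

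Genes that modify and fold the chains were called in both directions, at a share near that of all tested genes. The size of their log2 change had a median of 0.27, against 0.31 over all tested genes. Of 21 listed genes of the endoplasmic reticulum 19 were tested, of which 5 rose (Creb3l1, Colgalt1, P3h4, P3h3 and Ppib) and 4 fell (Plod2, Mia2, Plod1 and Mia3), or 47.4% against 40.8% of all genes, and the median log2 change was -0.04. P3h3, with a WT mean of 0.752 FPKM, entered the test only through the group in which it was high. Creb3l1, a transcription factor that drives type I collagen genes in bone, was at 18.4, 19.2 and 17.8 FPKM in WT, against 32.3, 36.7 and 33.1 FPKM in the KO-labelled libraries (log2 change 0.85, limma adjusted p = 0.000377). Plod2, the lysyl hydroxylase that prepares the collagen ends for stable crosslinks, was at 40.4, 35.5 and 32 FPKM and at 14.6, 18.0 and 15.4 FPKM (log2 change -1.12, adjusted p = 0.000493). Mia2, which helps load large cargo such as procollagen for export, fell from 18.3, 14.6 and 15.1 FPKM to 9.39, 9.04 and 7.63 FPKM, and Colgalt1, the collagen galactosyltransferase, rose from 36.0, 34.1 and 33.9 FPKM to 44.6, 51.2 and 45.8 FPKM (adjusted p of 0.00214 and 0.00541). The log2 change of Colgalt1 was 0.43, and it lies on chromosome 8, where the other tested genes had a median of 0.37. Serpinh1, the collagen chaperone HSP47, stood at 299 ± 25 and 297 ± 34 FPKM (log2 difference -0.02, adjusted p = 0.924). The balance of this list shifted with trend removal, to 2 rises and 8 falls after length and GC trends were removed, when P3h4, P3h3 and Ppib were no longer called.

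For cleavage of the propeptides and crosslinking, 10 of 14 genes were tested, of which 3 rose (Furin, Adamts2 and Pcolce2) and 2 fell (Bmp1 and Lox), or 50% against 40.8% of all tested genes, with a median log2 change of 0.15. Bmp1, the protease that removes the carboxyl propeptide of fibrillar chains, was at 72.3, 73.1 and 69.5 FPKM in WT, against 49.2, 46.6 and 50.9 FPKM in the KO-labelled libraries (log2 change -0.54, limma adjusted p = 0.0014). Adamts2, which removes the amino propeptide, went from 2.83, 2.32 and 2.18 FPKM to 3.48, 4.31 and 4.87 FPKM (0.60, adjusted p = 0.0128). Lox, the lysyl oxidase that starts crosslinks, went from 101.7, 87.5 and 74.8 FPKM to 50.5, 67.2 and 43.1 FPKM (-0.72, adjusted p = 0.0153). The calls of Adamts2 and Lox ended without WT replicate 2 (adjusted p of 0.0524 and 0.0506), and that of Lox also ended without KO-labelled replicate 1 (0.0548) and without a filter on low values (0.0651). Furin, a convertase that activates several of these proteases, was at 28.3, 30.02 and 31.1 FPKM and at 36.4, 42.4 and 40.9 FPKM (0.41, adjusted p = 0.00873).

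Of 10 collagen receptors 5 were tested, and 2 rose and 2 fell, where 19.7% of all tested genes rose and 21.2% fell. Adgrg6, an adhesion receptor that binds type IV collagen, was at 34.8, 29.0 and 23.6 FPKM in WT, against 9.96, 13.9 and 10.7 FPKM in the KO-labelled libraries (log2 change -1.27, limma adjusted p = 0.00134). The receptor tyrosine kinases Ddr1 and Ddr2 moved apart, Ddr2 from 19.2, 14.6 and 11.4 FPKM to 6.65, 9.14 and 6.28 FPKM (-0.93, adjusted p = 0.00927) and Ddr1 from 51.3, 62.1 and 63.2 FPKM to 77.8, 78.5 and 80.0 FPKM (0.42, adjusted p = 0.0114), a call that ended with the replicate block and both trends removed (0.0699). The integrin chain Itga10 rose from 1.35, 1.02 and 1.22 FPKM to 2.47, 2.79 and 3.35 FPKM (0.81, adjusted p = 0.0031), and its partner Itgb1 was at 307 ± 29 and 299 ± 35 FPKM. The other collagen-binding integrin chains, Itga1, Itga2 and Itga11, were untested, with means under 0.2 FPKM.

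Of 13 listed genes of collagen breakdown and uptake 8 were tested, and 5 rose (Fap, Mmp15, Mrc2, Mmp14 and Timp1) and 1 fell, or 75% against 40.8% of all tested genes, with a median log2 change of 0.55. The gene that fell, Mmp2, encodes a gelatinase that cleaves type IV and denatured collagen, and was at 31.5, 31.9 and 29.5 FPKM in WT, against 0.0804, 0.0515 and 0.124 FPKM in the KO-labelled libraries (log2 change -4.88, limma adjusted p = 9.07e-07). Its mean reached 1 FPKM in WT alone, so it entered the test only through that group. Mmp14, the membrane protease that activates the MMP2 protein, stood at 62.6 ± 6.9 and 95.8 ± 9.5 FPKM (0.61, adjusted p = 0.00446). Mrc2, the receptor that takes up collagen for lysosomal breakdown, was at 6.56, 6.76 and 7 FPKM and at 12.3, 12.5 and 16 FPKM (0.90, adjusted p = 0.00124), and Mmp15, a membrane-type protease, at 10.0, 10.6 and 9.89 FPKM and at 16.5, 20.6 and 18.8 FPKM (0.81, adjusted p = 0.00101). Fap, a serine protease of activated fibroblasts, was listed at 0 in all 3 WT libraries and at 1.2005, 1.43 and 1.62 FPKM in the KO-labelled libraries (adjusted p = 0.000453). Like Col6a2, it entered the test only through the group in which it was high and had to differ. Mmp2 and Mmp15 lie on chromosome 8, whose other genes had the upward median given above.

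**Figure D5:**
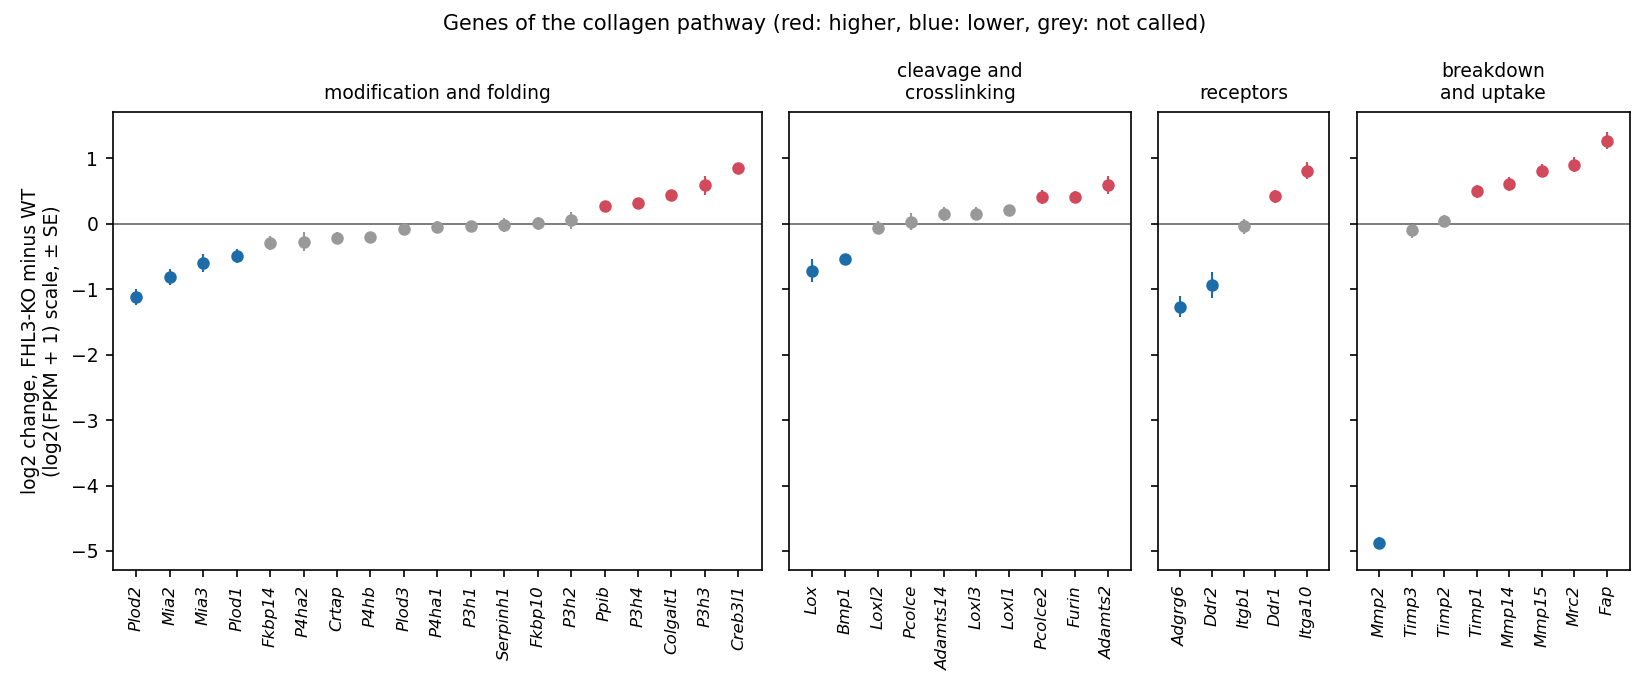
Log2 change with its standard error for the tested genes of the 4 pathway lists, ordered by change within each list, with red for genes that rose, blue for genes that fell and grey for genes that did not pass limma. Each list holds points on both sides of 0, and Mmp2 at -4.88 lies far from all others.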

How the data were processed

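RNA-seq of 3 WT and 3 FHL3-KO libraries of differentiated C2C12 cells was analysed from the table the authors deposited. Its header names only genes and samples. The values the authors deposited were read as FPKM, normalized for gene length and library size; no header or label states the unit, which was inferred from decimals and unequal column sums. The submitters' processing notes list HISAT2 2.2.1, Trim Galore 0.6.6, DESeq2 1.28.1, featureCounts 2.0.1 and mm10, without role or order. Annotation and strand setting: not given in the sources used here. Depth is unknown, and an exact 0 can be a failed estimate.

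Of 55420 rows, 7 with repeated gene IDs were left out. IDs were matched to GENCODE M21 (GRCm38; 99.7% of tested genes) for position, exon length and GC content. Where either group averaged 1 FPKM or more, genes were fitted as log2(FPKM + 1) with limma 3.58.1 in R 4.3.3 (mean-variance trend, two-sided, no covariates, Benjamini-Hochberg over all genes tested, threshold 0.05). Fold changes on this scale understate those of low genes. Chain ratios were compared by exact permutation. All tested chains are named, and the 4 members with the smallest p of each pathway list; other named genes were chosen after their values were seen. Members and lists were chosen with earlier results of these data known. Trends were removed with splines of 5 degrees of freedom on each library's deviations from the gene means. The fit was tested on simulated data. Alternatives changed the pseudocount, filter, scaling, trends, block, threshold and libraries, or left out chromosome 8.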

Additional observations from a re-analysis of the deposited data

How the results depend on the processing

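No called chain changed direction under any alternative that tested it, and 10 of the 12 called chains also stayed under an adjusted p of 0.05 (0.01 for the stricter threshold) in all of their alternatives; the exceptions were Col5a2 and Col12a1. Col6a3, not called, turned to 0.13 with the length trend removed and ran from -0.22 to 0.0062 without single libraries, the latter without WT replicate 1 (adjusted p = 0.977). Over all alternatives 3 to 7 chains rose, 3 with a filter at 5 FPKM because Col6a2 and Col12a1 were then not tested, and 5 to 9 fell, 5 without chromosome 8 because Col4a1 and Col4a2 were left out. Single left-out libraries gave 1605 to 2422 rises and 1667 to 2851 falls over all genes, the lowest counts without WT replicate 2 (and 1749 falls without KO-labelled replicate 1), and a threshold of 0.01 gave 1337 and 1358.

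Counts of the pathway lists are small and moved more. In the modification list the rises were 3 without a filter, with quantile normalization and with scaling to the same sum, 2 with length and GC trends removed, also with the replicate block, 2 at a threshold of 0.01, and 2 to 4 without single libraries (2 without WT replicate 2), while the falls were 8 with quantile normalization, 7 with the same sum, 8 with length and GC trends removed and 2 at 0.01. In the crosslinking list 1 to 3 rose and 1 to 2 fell without single libraries, with 1 of each without WT replicate 2, 1 fall without KO-labelled replicate 1, and 1 of each at 0.01. Of the receptors 1 rose with a filter at 5 FPKM, at 0.01, and with the replicate block and both trends removed. The breakdown list had 0 falls without chromosome 8, where Mmp2 lies.

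The ratio differences on the log2 scale were smaller with trends removed, which needs a pseudocount of 1. Col1a1/Col1a2 gave 0.53 (length), 0.54 (length and GC) and 0.69 (pseudocount alone), Col5a1/Col5a2 gave 0.50 (length and GC), and Col6a1/Col6a3 gave 1.92, 1.98 and 2.19. The summed levels of every class kept their direction under median-of-ratios scaling and without each library.

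Same-numbered libraries deviated together at correlations of -0.13, -0.06 and 0.32. Not every library correlated best with its own number, though the libraries numbered 3 correlated best with each other. With 3 libraries per group these values cannot decide whether same-numbered libraries shared a culture or batch, and no label pairs them. The replicate block gave 2265 rises and 2494 falls over all genes, and 4 and 7 among the chains. Read depth is unknown, so chains under 1 FPKM cannot be given counting limits.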
